A study of Mus musculus with 6 samples.

Results

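The killer cell lectin-like receptor genes described here are Klrk1 (NKG2D), Klrc1 (NKG2A), Klrc2 (NKG2C), Klrc3 (NKG2E), Klrd1 (CD94), Klre1, Klri1, Klri2 and Klrg1. They were chosen by name as the NKG2, CD94 and KLRG1 receptors of mouse natural killer (NK) cells, by a rule that uses no measured value, though with earlier results of these data known, and all 9 were among the 14490 genes of the deposited mRNA-seq table. The samples were NK cells sorted from the spleens of C57BL/6 mice, and the methods of the study give an age of 6 to 10 weeks for its mice. The control group, WT, was Mettl3fl/fl, so both groups carried floxed Mettl3 alleles. The methods of the study name no Cre for these controls and Ncr1Cre/+ for the cKO mice. Effects of Cre and of Mettl3 loss thus cannot be told apart here. The other group, cKO, was Ncr1Cre-Mettl3fl/fl, in which Mettl3 is removed by a Cre recombinase under control of the Ncr1 locus, and so in cells that express NKp46. Each group had 3 samples. The labels do not say whether these came from separate mice, and p-values then measure only the spread between these samples, which may be technical.

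NK cells decide whether to kill a target by adding up signals from activating and inhibitory surface receptors. NKG2D is a homodimer that recognises stress-induced ligands and signals through the adaptors DAP10 and DAP12. CD94 forms heterodimers with the NKG2 chains, which read the non-classical class I molecule Qa-1: the NKG2A chain carries inhibitory motifs, and NKG2C and NKG2E couple to DAP12. KLRE1 pairs with KLRI1 into an inhibitory receptor and with KLRI2 into an activating one. KLRG1 is an inhibitory receptor for cadherins that marks terminally differentiated NK cells. METTL3, the enzyme deleted here, writes N6-methyladenosine (m6A) on mRNA, most often on an adenosine preceded by GG or AG and followed by C.

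The core of that sequence, GGACT in DNA letters, was searched on the transcript strand of the longest coding transcript of each gene in the GENCODE M21 annotation of GRCm38. The search was chosen after the expression values had been seen. Klri2 held 5 copies, Klrk1 and Klrg1 4 each, Klrc1, Klrc2 and Klrc3 2 each, Klre1 1, and Klrd1 and Klri1 held 0. A copy is common: 92.2% of the 11815 listed genes with a coding transcript held one, with a median density of 1.05 per kb and quartiles of 0.635 and 1.52. The density of Klri2 lay within the quartiles, and that of Klrg1 lay above them with 2.83 per kb, as did the short Klrc3 transcript with 2.80 per kb. The windows below are those of Klri2 and Klrg1, whose transcripts are described further on as among the most reduced, and a window found in nearly the same letters in Klrc1, Klrc2 and Klrc3, whose reads can be hard to separate. The copy of Klrg1 whose window spans an exon junction is not shown. Capitals mark GGACT, and each window is on the minus strand of chromosome 6 of GRCm38. A match is a description of the letters, and no methylation was measured here.
Klri2, 5′ UTR, exon 1, chr6:129740416-129740440: agtcttttcaGGACTaaaaaaaatg
Klri2, 3′ UTR, exon 6, chr6:129731769-129731793: taagaaacagGGACTctacagagca
Klri2, 3′ UTR, exon 6, chr6:129730766-129730790: agctaataaaGGACTcatatatttc
Klri2, 3′ UTR, exon 6, chr6:129730250-129730274: ctcttctagaGGACTcagatttact
Klri2, 3′ UTR, exon 6, chr6:129729868-129729892: ccataatggaGGACTgaagttctta
Klrg1, coding sequence, exon 3, chr6:122278176-122278200: tggagaaaaaGGACTggaattctag
Klrg1, coding sequence, exon 4, chr6:122273593-122273617: acctgggtcaGGACTtttactggat
Klrg1, 3′ UTR, exon 5, chr6:122270740-122270764: ctaggcggaaGGACTgtgggtgctt
Klrc1, coding sequence, exon 5, chr6:129675355-129675379: ctgatctcatGGACTggaatccttc
Klrc2, coding sequence, exon 5, chr6:129656867-129656891: ctggtctcatGGACTggaatccttc
Klrc3, coding sequence, exon 4, chr6:129639584-129639608: ctggtctcatGGACTggaatccttc
The Klrc2 and Klrc3 windows differed at 0 of 25 bases, and the Klrc1 window differed from both at 1 base.

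The values used are normalized counts, gene read counts scaled by a size factor per sample. Reads on the listed genes, which follow from the step between values, numbered 55965515 to 67732352 in WT and 62995813 to 71464042 in cKO samples. Mettl3 itself had 1303, 1258 and 1192 normalized counts in WT and 297, 299 and 405 in cKO, a log2 fold change of −1.92 (SE 0.0986, adjusted p = 2.32e-14), so every sample stood on the side of its label. NK markers were abundant in every sample, with a summed level of 221343 to 232381 in WT and 197178 to 205022 in cKO. Of these 7 markers, Ncr1, Nkg7 and Klrb1c were lower in cKO and Tbx21 was higher.

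In METTL3-deficient NK cells, 6 of the 9 receptor transcripts were lower than in WT NK cells and 0 were higher. The falls differed in size: Klri2, Klrg1 and Klri1 fell by 31.8% to 34.8%, Klrc1 fell by 19.5%, Klrk1 fell by 12.1% and Klre1 fell by 8.78%. Klrc2, Klrc3 and Klrd1 did not pass the test. The test was limma on log2(normalized count + 1), two-sided, with an adjusted p under 0.05 over all genes, and it called 36.6% of all listed genes, 18.8% as lower and 17.8% as higher. Against the share of 18.8%, 66.7% of the receptors were lower. The median log2 fold change of the 9 receptors was −0.19 where that of all genes was 0.00140. The receptors had a median mean count of 16607 against 880 for all genes, so neither comparison is matched for abundance. The genotypes did not overlap for 6 of the 9 receptors, the called ones, nor for 45.7% of all genes, and the exact permutation test gave each of the 6 p = 0.1, the smallest that 3 against 3 samples allow. Of the receptors, 0 met the study's rule of an unadjusted p under 0.05 with a log2 fold change beyond 1 in size, which 1.75% of all genes met. Counts come from bulk RNA, in which fewer cells of a type and less RNA per cell cannot be told apart.

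**Figure D1:**
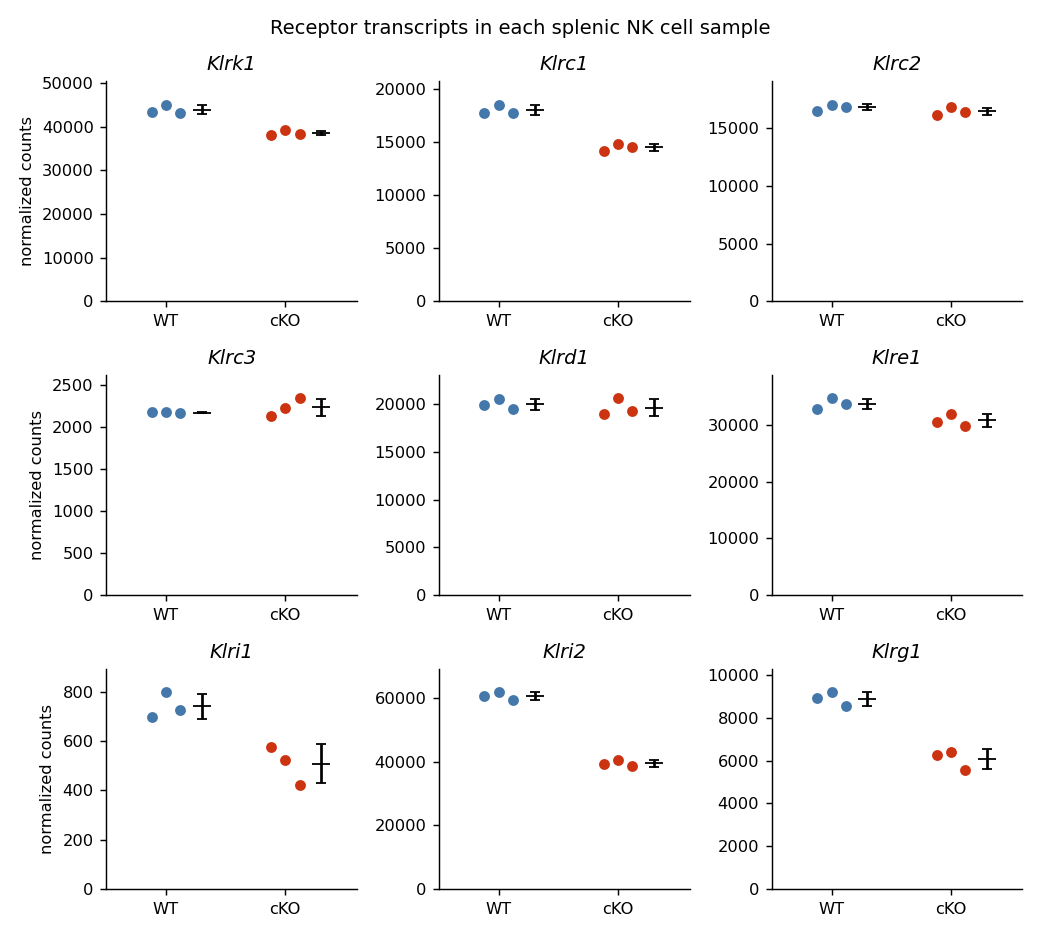
Normalized counts (vertical axes, from 0) of the 9 receptor genes in the WT (blue) and cKO (red) samples, with each point a sample and the black bar the mean and SD of 3 samples. The cKO points lie below the WT points for Klrk1, Klrc1, Klre1, Klri1, Klri2 and Klrg1, and overlap them for Klrc2, Klrc3 and Klrd1.

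Klrk1, which encodes the activating receptor NKG2D, fell modestly. Its normalized counts were 43428, 45023 and 43214 in WT and 38181, 39105 and 38390 in cKO. The highest cKO sample thus lay below the lowest WT sample. The mean went from 43888 ± 988 (SD, n = 3) to 38559 ± 485 (SD, n = 3), a log2 fold change of −0.19 (SE 0.0293, adjusted p = 1.25e-05) or −12.1%.

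Klrd1, which encodes CD94, the chain that every CD94/NKG2 heterodimer needs, showed no detected difference. Its counts were 19859, 20565 and 19453 in WT and 18963, 20593 and 19329 in cKO, with one cKO sample above all WT samples. The log2 fold change was −0.02 (SE 0.0338, adjusted p = 0.617), and the 95% interval of the change ran from −6.32% to 3.17%. Among its partners, Klrc1, which encodes the inhibitory chain NKG2A, was the one that fell. Klrc1 had 17772, 18543 and 17759 counts in WT and 14162, 14848 and 14504 in cKO. These groups were well apart, with means of 18024 ± 449 and 14504 ± 343 (SD, n = 3 each) and a log2 fold change of −0.31 (SE 0.0320, adjusted p = 1.39e-08), or −19.5%.

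The activating partners did not pass the test. Klrc2, the gene of NKG2C, had 16507, 17026 and 16807 counts in WT and 16164, 16789 and 16348 in cKO. These ranges overlapped, and the log2 fold change was −0.03 (SE 0.0310, adjusted p = 0.487), with an interval of the change from −6.30% to 2.35%. Klrc3, the gene of NKG2E, had 2172, 2170 and 2161 counts in WT and 2130, 2225 and 2335 in cKO. The cKO samples straddled the WT samples, which lay close together, and the log2 fold change was 0.04 (SE 0.0490, adjusted p = 0.571), with an interval from −4.13% to 10.2%. Reads of these 3 genes can be hard to separate: of the 100-base windows of the longest coding transcripts, 15.9% of those of Klrc1 also occurred in Klrc2, 12.8% of those of Klrc2 in Klrc1 or Klrc3, and 20.9% of those of Klrc3 in Klrc2. Klrc1 and Klrc3 shared 0 such windows. How shared reads were counted is not stated, so the values of the 3 genes are uncertain to that extent. The other 6 receptors shared 0 such windows with another receptor of the set.

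Klre1, the common chain of the KLRE1/KLRI heterodimers, fell less than its partners. It had 32903, 34703 and 33714 counts in WT and 30623, 32013 and 29804 in cKO. The groups did not overlap, and the log2 fold change was −0.13 (SE 0.0320, adjusted p = 0.00167), or −8.78%. Klri1, the partner in the inhibitory dimer, was the scarcest of the receptors, with 700, 799 and 727 counts in WT and 578, 525 and 424 in cKO. Its cKO samples were spread more widely than those of the abundant receptors, and the log2 fold change was −0.55 (SE 0.0980, adjusted p = 6.04e-05), with an interval of the change from −40.7% to −21.6%. Klri2, the partner in the activating dimer, had the lowest p of the set. It had 60425, 61758 and 59319 counts in WT and 39302, 40548 and 38450 in cKO. The means, 60501 ± 1221 and 39433 ± 1055 (SD, n = 3 each), were many times the SD apart, with a log2 fold change of −0.62 (SE 0.0300, adjusted p = 8.19e-15), or −34.8%. Klri2 was the only receptor that passed a limit of 1.5-fold with an unadjusted p under 0.05, as did 6.43% of all genes.

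Klrg1, the cadherin receptor of terminally differentiated NK cells, lies apart from the other genes on the chromosome and fell by an amount close to that of the Klri genes. It had 8946, 9193 and 8545 counts in WT and 6267, 6409 and 5541 in cKO. All cKO samples lay far below the WT samples, with means of 8895 ± 327 and 6072 ± 466 (SD, n = 3 each) and a log2 fold change of −0.55 (SE 0.0440, adjusted p = 1.39e-10), or −31.8%. The intervals of the log2 fold changes of Klrg1 (−0.64 to −0.46), Klri1 (−0.75 to −0.35) and Klri2 (−0.68 to −0.56) overlapped.

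**Figure D2:**
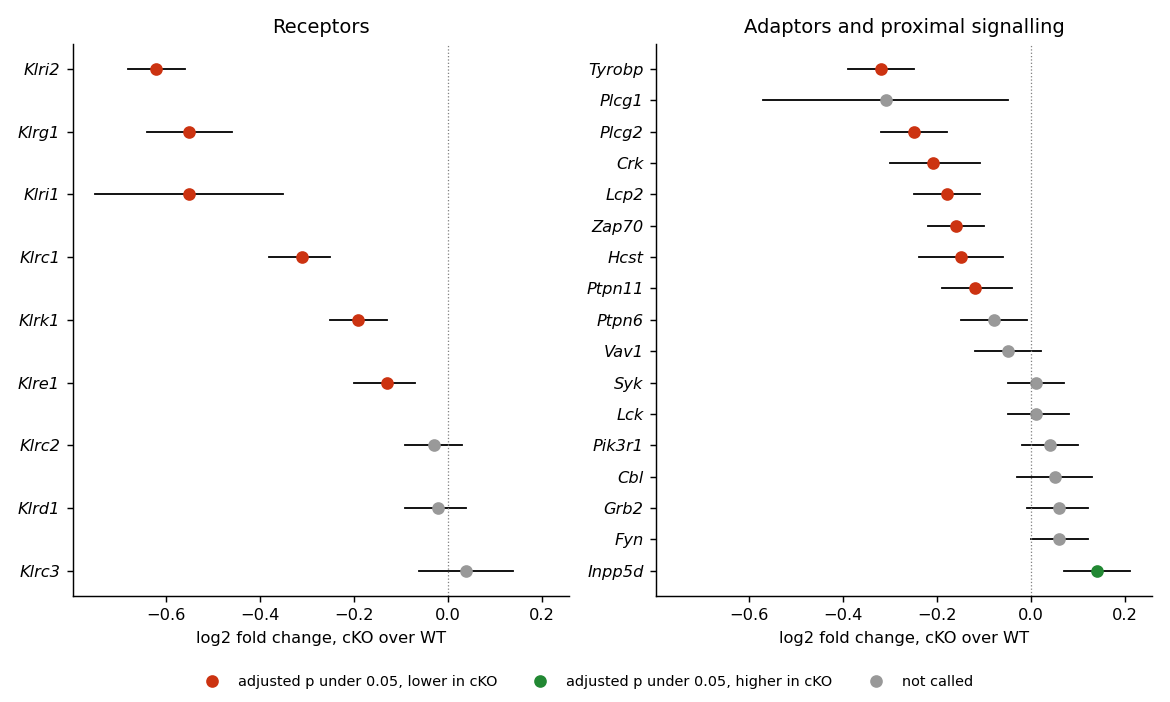
Log2 fold change of cKO over WT (horizontal axes) with 95% intervals for the receptor genes (left) and the adaptor and proximal signalling genes (right), ordered by size. Red points are lower and green points higher in cKO at an adjusted p under 0.05, and grey points did not pass; Klri2 at −0.62 is the lowest of the receptors and Tyrobp at −0.32 the lowest of the other list.

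A ratio of transcripts within a sample does not depend on the scaling between samples. The log2 ratio of each receptor to Klrd1 was therefore compared between genotypes by the exact permutation test, for 8 receptors. The values are ratios of counts, not corrected for length, so only their change between genotypes can be read. The ratio to Klrd1 was lower in every cKO sample than in any WT sample for 6 receptors, the same 6 already called lower. The differences were −0.59 for Klri2, −0.53 for Klri1 and Klrg1, −0.29 for Klrc1, −0.16 for Klrk1 and −0.11 for Klre1. The exact p was 0.1 for each, the smallest possible, and 0.133 after Benjamini-Hochberg adjustment. Before any ratio, 45.7% of all genes did not overlap between genotypes. The share of all genes whose ratio to Klrd1 lay apart was not computed. For Klrc1, the NKG2A chain, the log2 ratio to Klrd1 was −0.160, −0.149 and −0.131 in WT and −0.421, −0.472 and −0.414 in cKO, so the inhibitory chain stood lower against its partner in every cKO sample. For Klrc2 the ratio differed by −0.01 (exact p = 1.0) and for Klrc3 by 0.06 (exact p = 0.400), and the groups overlapped.

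**Figure D3:**
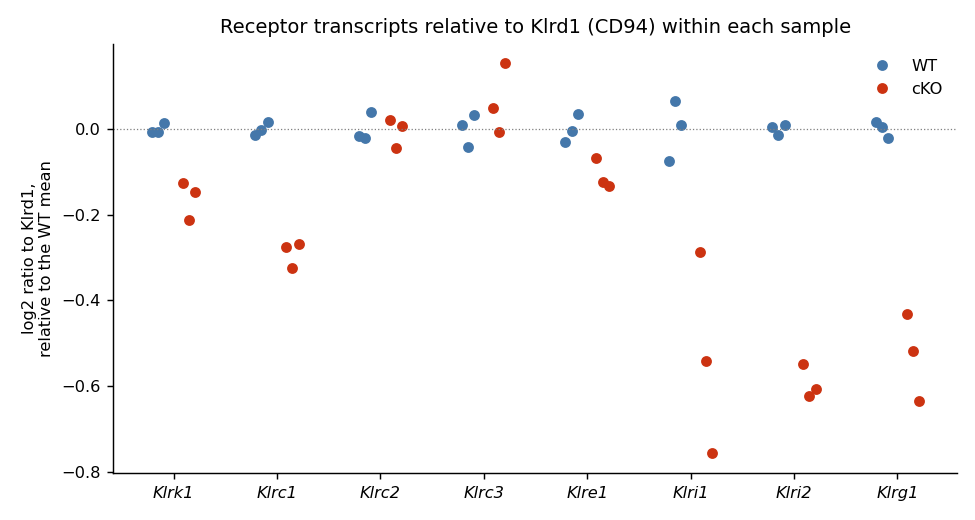
Log2 ratio of each receptor's normalized count to that of Klrd1 within a sample (vertical axis), set to 0 at the WT mean of each gene, for WT (blue) and cKO (red) samples. The cKO points lie below the WT points for 6 genes and overlap them for Klrc2 and Klrc3.

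A further 4 ratios between partner chains were chosen after the values had been seen. The log2 ratio of Klrc1 to Klrc2, the inhibitory to the activating chain of CD94, was 0.106, 0.123 and 0.080 in WT and −0.191, −0.177 and −0.173 in cKO. The ratio was lower in every cKO sample than in any WT sample, with a difference of −0.28 (exact p = 0.1, 0.133 adjusted over the 4 ratios). Both Klri chains stood lower against Klre1 in cKO, Klri1 by −0.42 and Klri2 by −0.49 (exact p = 0.1, 0.133 adjusted, for each). The ratio of Klri2 to Klri1, the activating to the inhibitory chain, differed by −0.07 (exact p = 0.600), and its groups overlapped. At these values the pair of Klri transcripts showed no detected difference in proportion, though the cKO ratios spread over 6.086, 6.268 and 6.498.

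Levels can be compared between genes only per length. Per kb of merged exons, Klrd1 was highest in WT with 15581 ± 439 normalized counts per kb, followed by Klri2 with 15461 ± 312, Klre1 with 9666 ± 258, Klrc1 with 9085 ± 226, Klrg1 with 6290 ± 231, Klrk1 with 6110 ± 138, Klrc3 with 2945 ± 8.15, Klrc2 with 2887 ± 44.8 and Klri1 with 886 ± 61.3 (SD, n = 3 each). The sample ranges of neighbours in this order did not overlap, except those of Klrd1 and Klri2, and of Klrg1 and Klrk1. In cKO, Klri2 per kb of merged exons stood at 10077 ± 270 and Klrd1 at 15323 ± 667, so these transcripts, level in WT by this length, were apart. By the same length Klrg1 also moved below Klrk1 in cKO, at 4294 ± 329 against 5368 ± 67.5 counts per kb. The order depends on which length is used: per kb of the longest coding transcript, Klre1 was highest in WT at 26100 and Klrd1 next at 21718. By that length Klri2, at 15461, was already below Klrd1 in WT. Klrg1, at 6290, was likewise already below Klrk1, at 13728. Klrc2, at 5969, stood above Klrc3, at 3031, the reverse of their order by merged exons. Summed over all 9 receptors, the counts were 0.304%, 0.315% and 0.305% of all listed counts in WT and 0.260%, 0.266% and 0.260% in cKO.

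Klri2 had the highest counts of the set, and few genes more abundant than it fell as far. It ranked 186th by mean normalized count among the 14490 genes. A lower log2 fold change than that of Klri2 was found for 456 genes (3.15%), but for only 2 of the 185 genes more abundant than it. For Klrg1 these numbers were 576 genes (3.98%) in all and 19 of the 1798 more abundant genes, and for Klrc1 1657 genes (11.4%) and 58 of 748. For Klrk1 and Klre1, also called lower, 63 of 244 and 136 of 331 more abundant genes had a lower value. Klrd1 lay near the middle of all genes, with 45.8% lower, but 376 of the 578 more abundant genes lay below it.

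**Figure D4:**
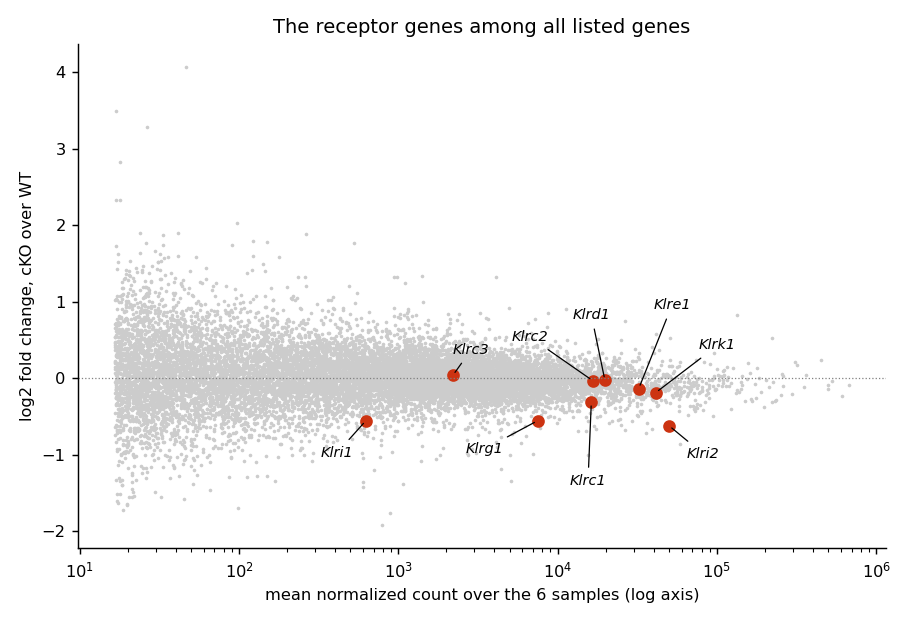
Log2 fold change of cKO over WT (vertical axis) against the mean normalized count over the 6 samples (horizontal log axis) for all 14490 listed genes (grey), with the 9 receptor genes in red. Klri2 lies at −0.62, with 2 of the 185 more abundant genes lower, and Klrc2, Klrc3 and Klrd1 lie near 0.

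The genes whose levels followed those of Klri2 most closely were sought over the 6 samples among 11753 genes with a mean of at least 1 CPM. They were Rnf157 (r = 0.9996), Crtam (r = 0.9996), which encodes an adhesion receptor of cytotoxic lymphocytes, and Cecr6 (r = 0.9993). With 2 genotypes that differ, such a correlation across samples contains the genotype difference itself, and no p is given. Crtam had 2046, 2078 and 1975 counts in WT and 1286, 1335 and 1240 in cKO. Its log2 fold change was −0.66, that of Rnf157 −0.27 and that of Cecr6 −1.01. Genes picked for so close a correlation separate the genotypes as Klri2 does, so these differences follow from the choice and are not separate results.

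All genes of the set except Klrg1 lie in a cluster of 163 kb on chromosome 6 of GRCm38, from 129577905 to 129740484, and Klrg1 lies 7.30 Mb away, from 122270596 to 122282882 on the minus strand. None of the 9 genes overlaps another annotated gene. The order along the chromosome was looked at after the values had been seen. From Klre1 onwards, the log2 fold changes were −0.13 for Klre1, −0.02 for Klrd1, −0.19 for Klrk1, 0.04 for Klrc3, −0.03 for Klrc2, −0.31 for Klrc1, −0.55 for Klri1 and −0.62 for Klri2. The 3 lowest values of the cluster's receptors thus belonged to 3 genes in a row at the end of the cluster, and the 3 genes that did not pass the test lay further in.

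Of 11 annotated genes within the cluster, the table lists the 8 receptors and Gm44135, an annotated locus of unknown coding status that ends 732 bases from Klri1 on the same strand. Gm44135, singled out after its values were seen, had 218, 208 and 210 counts in WT and 173, 159 and 167 in cKO. Its groups did not overlap, but its log2 fold change of −0.35 did not pass the test (adjusted p = 0.0605). In the 200 kb before Klre1, 0 of 5 listed genes were lower and 1 was higher, Gm44243 (1.30, adjusted p = 3.99e-04). In the 200 kb after Klri2, the only listed gene was Klra5, a Ly49 receptor gene, with a log2 fold change of −0.35 (adjusted p = 0.00195).

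**Figure D5:**
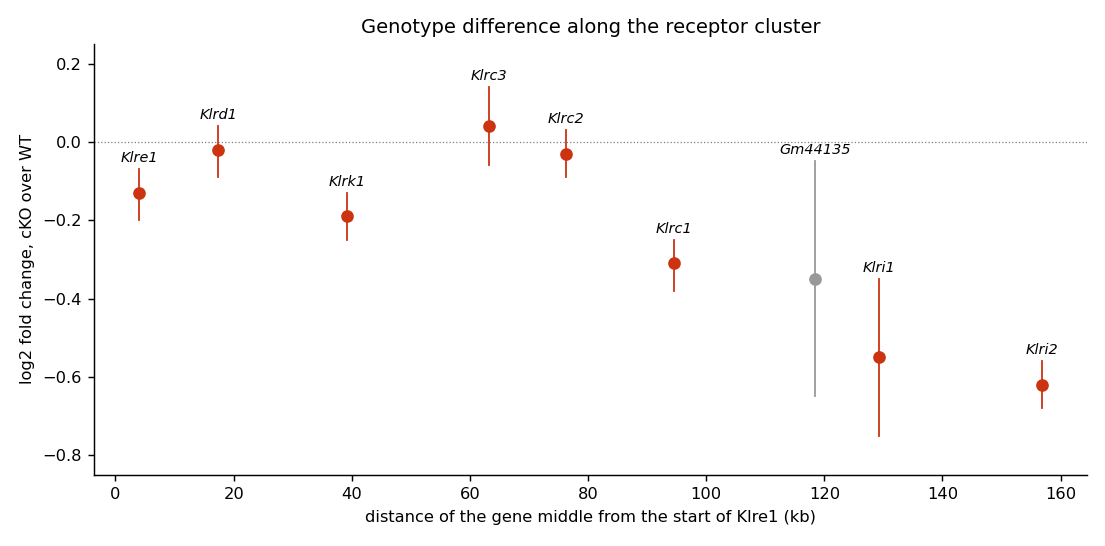
Log2 fold change of cKO over WT with its 95% interval (vertical axis) against the distance of each gene's middle from the start of Klre1 in kb (horizontal axis), for the receptor genes of the cluster (red) and the other listed gene within it, Gm44135 (grey). The values lie between −0.19 and 0.04 from Klre1 to Klrc2 and between −0.62 and −0.31 from Klrc1 to Klri2.

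Both adaptor genes through which the activating receptors signal passed the test as lower. Tyrobp, the gene of DAP12, had 56615, 56953 and 54155 counts in WT and 46364, 45747 and 42443 in cKO. The groups were well apart, with a log2 fold change of −0.32 (SE 0.0333, adjusted p = 2.08e-08), or −19.8%. Hcst, the gene of DAP10, which carries NKG2D signals, had 6483, 7294 and 6943 counts in WT and 6187, 6551 and 5929 in cKO. It passed the test with a log2 fold change of −0.15 (adjusted p = 0.00683), although one cKO sample lay above the lowest WT sample. This call was lost in 4 alternatives: without WT sample 2 (−0.11, adjusted p = 0.0583), without cKO sample 3 (−0.12, adjusted p = 0.0527), with equal totals (−0.10, adjusted p = 0.0622) and with limma-voom (−0.098, adjusted p = 0.0684).

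Of all 17 genes of the adaptor and proximal signalling list, 7 were lower, 1 was higher and 9 did not pass, with a median log2 fold change of −0.08. That is 47.1% called, against 36.6% of all genes. The other lower genes were Plcg2 (−0.25), a phospholipase, Lcp2 (−0.18), the scaffold SLP-76, Zap70 (−0.16), a kinase of ITAM adaptors, Crk (−0.21), an adaptor protein, and Ptpn11 (−0.12), the phosphatase SHP-2 that binds inhibitory motifs. Ptpn11 did not pass without WT sample 1 (adjusted p = 0.0769) or cKO sample 1 (adjusted p = 0.0779), with equal totals (−0.069, adjusted p = 0.145) or with limma-voom (−0.069, adjusted p = 0.137). The one higher gene was Inpp5d (0.14, adjusted p = 0.00132), which encodes SHIP-1, the lipid phosphatase that KLRG1 can recruit. Syk, like Zap70 a kinase of ITAM adaptors, had a log2 fold change of 0.01 (adjusted p = 0.808). Ptpn6, the phosphatase SHP-1 bound by NKG2A, had −0.08 (adjusted p = 0.0723). With samples scaled to equal totals, which moves the median of all genes by about 0.05, 5 genes of this list were lower and 4 higher, as with limma-voom.

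NK cells also transcribe genes of the ligands, of which 8 of 16 were in the table: 3 were lower, 0 were higher and 5 did not pass. The share called, 37.5%, is near the 36.6% of all genes, and with equal totals 2 were lower and 1 higher. H2-T23, the gene of Qa-1, which CD94/NKG2 receptors bind, had 22351, 23144 and 23009 counts in WT and 18372, 19437 and 17992 in cKO. Its groups did not overlap, and the log2 fold change was −0.30 (SE 0.0326, adjusted p = 5.07e-08), or −18.6%. H2-D1, whose leader peptide Qa-1 presents, changed by −0.11 (adjusted p = 0.00570), a call that did not hold with equal totals (−0.063, adjusted p = 0.0690). Tap1 (0.03, adjusted p = 0.550) and Tap2 (0.05, adjusted p = 0.270), the peptide transporter that loads it, did not pass. Among NKG2D ligand genes, H60b was lower (−0.45, adjusted p = 0.0117), but not without WT sample 1 (adjusted p = 0.0720), WT sample 3 (adjusted p = 0.0669) or cKO sample 2 (adjusted p = 0.0562). Ulbp1, the gene of MULT1, did not pass (0.03, adjusted p = 0.679), nor did Cdh1, the gene of the KLRG1 ligand E-cadherin (−0.35, adjusted p = 0.441), at 25.6 to 43.7 counts a sample.

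Klrg1 is used as a mark of NK cell maturity, so genes of mature and immature NK cells are given beside it. Of 10 genes of mature NK cells, 3 were higher, 2 were lower and 5 did not pass, where 17.8% of all genes were higher and 18.8% lower. With equal totals 5 were higher and 1 lower, and with limma-voom 5 were higher and 2 lower. The higher ones were the receptors Cx3cr1 (0.54, adjusted p = 1.82e-07) and S1pr5 (0.49, adjusted p = 4.11e-11), which guide mature NK cells, and the repressor gene Prdm1 (0.27, adjusted p = 9.01e-07). The lower ones were Prf1, perforin (−0.18, adjusted p = 6.28e-05), and Gzma, granzyme A (−0.11, adjusted p = 0.0119). The Gzma call was lost without WT sample 2, cKO sample 1 or cKO sample 3 (adjusted p = 0.0613, 0.0631 and 0.0724), and with equal totals (−0.056, adjusted p = 0.115). Itgam, the gene of CD11b that defines the mature stages together with the loss of CD27, had 50884 to 51368 counts in WT and 50586 to 51902 in cKO, with a log2 fold change of 0.00 (adjusted p = 0.948). Klrg1 thus fell, as did Prf1 and, less firmly, Gzma, while Itgam showed no detected difference and Cx3cr1, S1pr5 and Prdm1 rose.

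Of 9 genes of immature NK cells, 3 were higher, 1 was lower and 5 did not pass, which is 44.4% called against 36.6% of all genes. With equal totals, and with limma-voom, 5 were higher and 1 lower. Cxcr3, a chemokine receptor, had 870, 892 and 893 counts in WT and 1492, 1608 and 1564 in cKO (0.81, adjusted p = 4.84e-11). Ltb, lymphotoxin beta (0.64, adjusted p = 2.90e-11), and Il7r (0.52, adjusted p = 1.37e-06) were higher too, and Kit, the stem cell factor receptor, was lower (−0.53, adjusted p = 4.89e-08). Cd27 had a log2 fold change of 0.03 (adjusted p = 0.660). The lists therefore did not move in one direction each, and the part of cell maturity in the receptor values was not tested.

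Markers of other spleen cells were low beside those of NK cells, and some moved with genotype. Their counts stand against 18.8% of all genes lower and 17.8% higher. The summed level of 9 listed T cell markers was 7232 to 7762 in WT and 5939 to 6393 in cKO, with 3 lower and 0 higher. The lower ones were Cd3g (−0.75, adjusted p = 4.50e-08), Cd6 (−0.84, adjusted p = 0.0393) and Trbc2 (−0.33, adjusted p = 6.95e-07). Trbc2 made up most of the sum, with a mean of 4717 counts in WT and 3756 in cKO. The other 6 did not pass. Among them Trac stood higher in every cKO sample, with a mean of 767 in WT and 863 in cKO (adjusted p = 0.0750). The T cell markers thus did not all move in one direction. Cd8a, a mark of T cells that can also carry NKG2D, CD94 and KLRG1, did not pass. It had 45.2 ± 6.53 counts in WT and 71.3 ± 4.44 in cKO (SD, n = 3 each, adjusted p = 0.0514). The 7 B cell markers summed to 1302 to 1318 in WT and 1748 to 1803 in cKO, with 5 higher and 0 lower. Among the 4 listed myeloid markers, 2 rose and 1 fell. The test called 0 of 4 listed erythroid markers and 0 of 4 ILC1 markers. The part of these cells in the receptor values was not tested.

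Ncr1, the gene of NKp46, needs care as an NK marker here because Cre sits in its locus in cKO mice. Its counts were 22707, 22328 and 22147 in WT and 16938, 17138 and 16678 in cKO (log2 fold change −0.40, adjusted p = 3.56e-11). Nkg7, a granule gene, changed by −0.34 (adjusted p = 1.03e-08) and Klrb1c, the gene of NK1.1, by −0.27 (adjusted p = 8.07e-08), within the span of the receptors' own changes. Eomes (−0.01, adjusted p = 0.828) and Itga2 (0.03, adjusted p = 0.446), which mark conventional NK cells, did not pass, and Tbx21, the gene of T-bet, was higher (0.23, adjusted p = 5.47e-07).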

How the data were processed

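The authors sorted splenic NK cells by FACS, prepared poly-A mRNA libraries, sequenced them as paired ends, used HISAT2 to align them to GRCm38 and featureCounts to count them, and compared genotypes with DESeq2. The submitters' processing notes give HISAT2 2.0.5 and 2.0, featureCounts 1.5.0-p3 and DESeq2 1.16.1, and strand use in counting is not stated. The methods of the study give other versions of HISAT2 and DESeq2, and which versions made the deposited values is not clear. The deposited sample columns hold a signal: counts divided by the authors' size factors. The deposited table also holds the authors' mean, log2 fold change with its error, test score, p-value and adjusted p-value, none of which were used.

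The members and gene lists, and the rule for naming genes, were chosen with earlier results of these data known. Groups come from the labels. The filter asked for 1 normalized count or more in 3 or more samples and dropped no gene. Genotype effects on log2(value + 1) were estimated with limma-trend (limma 3.58.1, R 4.3.3). Tests were two-sided, and adjustment by Benjamini-Hochberg ran over all 14490 genes. Fold changes are on the log2(value + 1) scale, which understates those of low genes, and intervals are at the 95% level. For single values and ratios, all 20 ways to assign the 6 samples were enumerated in an exact permutation test. The steps were tested on simulated data. In every sample 100% of values were whole multiples of one step within 0.01 reads, which gives the reads on listed genes; the depth of whole libraries was not used here. GENCODE M21 gave positions, lengths and transcripts (97.3% of names matched). Of the names, 19 were spreadsheet dates and 1 was repeated; those genes stayed in the fit and are not named.

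The rule named all 9 receptors and Mettl3, genes of the adaptor, ligand, mature and immature NK lists with called ones first, the 3 genes most correlated with the receptor of lowest p, and listed genes within the cluster. Genes around the cluster and the cell type markers are named beside them. Alternatives changed the filter (none, or 1 CPM in 3 samples), the pseudocount (0.1), the scaling (equal totals, or trimmed-mean TMM factors) or the fit (limma-voom on reads computed from the values, or a replicate block). Others were each replicate left out in turn, a 1.5-fold limit or adjusted p in the study's rule, and another partner or scale for the ratios.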

Additional observations from a re-analysis of the deposited data

How the results depend on the processing

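Across the 13 alternatives in the fit over all genes, the 6 lower receptors passed in all 13 and Klrc2, Klrc3 and Klrd1 passed in 0. The log2 fold change ranged from −0.64 to −0.57 for Klri2, −0.59 to −0.49 for Klrg1, −0.65 to −0.43 for Klri1, −0.33 to −0.26 for Klrc1, −0.20 to −0.14 for Klrk1 and −0.16 to −0.08 for Klre1, whose highest adjusted p was 0.0276 with equal totals. Equal totals moved the median of all genes from 0.00140 to 0.0508 and the split of calls to 3487 higher and 2016 lower, against 2576 and 2731, and limma-voom gave 3439 and 2010. With a replicate left out, 4417 to 4922 genes were called. Of the receptors, 1 passed the study's rule with a limit of 1.5-fold. Genes that did not pass changed sign: Klrc2 to 0.019 with equal totals and 0.020 with limma-voom, Klrd1 to 0.025 and 0.027, Zeb2 and Tcf7 to 0.026 in both, and Vav1 to 0.00057 with limma-voom. With a replicate left out, values ranged across 0 for Zeb2 (−0.044 to 0.0027), Tcf7 (−0.048 to 0.012), Lck (−0.011 to 0.033), Ulbp1 (−0.0034 to 0.069), Itgam (−0.0071 to 0.011) and Cd27 (−0.017 to 0.066). Against the sum of the 9 receptors in place of Klrd1, the log2 ratio differed by 0.10 for Klrk1, −0.03 for Klrc1, 0.25 for Klrc2, 0.32 for Klrc3, 0.15 for Klre1, −0.27 for Klri1 and Klrg1 and −0.33 for Klri2; that sum falls in cKO itself. Over all alternatives, values of single genes of the other lists lost a call 16 times and gained one 23 times, in the same direction. The cause of the other changes was not tested. The replicate numbers share only a name: deviations of same-numbered samples correlated at −0.0396, 0.056 and 0.038, and not every sample correlated best with its own number. With the replicate block 5543 genes were called against 5307, and 6 receptors. The count tests planned with edgeR and DESeq2 were not run. With 3 samples per genotype, differences of a few percent in Klrc2, Klrc3 and Klrd1 were not detectable, and the spread of a single gene is poorly known.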
